A study of Mus musculus with 74 samples.

Results

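The genes *Il3*, *Csf2*, *Csf1*, *Il21*, *Il9*, and *Lif* encode growth factors and effector cytokines that helper T cells can secrete. These 6 genes were chosen by their symbols in the annotation of the array probes, out of 19031 genes that have a probe with a single symbol. Each gene is represented by its probe with the highest mean log2 intensity over all 74 arrays. Of the 6 genes, 5 passed the filter on low values and were among the 13817 genes tested, and *Il9* did not pass.

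Levels were measured on Illumina bead arrays in naive CD4+ CD62L-high T cells sorted from spleens and lymph nodes, which were pooled, of Balb/c mice at 5 to 8 weeks of age, and in cultures derived from them. All cultures were activated with antibodies against CD3 and CD28. In Th0 cultures, IL-12, IFN-γ, and IL-4 were blocked by antibodies. Th1 cultures contained IL-12 while IL-4 was blocked, Th2 cultures contained IL-4 while IFN-γ and IL-12 were blocked, and Th1/2 hybrid cultures contained both IL-12 and IL-4 without any block. Naive cells at 0 h and the 4 cultures at 3, 6, 12, 24, 35, 48, 73, 96, and 120 h made up 37 conditions. Each condition was measured on 1 array per experiment, in 2 experiments. The sources used here give no number of mice per experiment, so p-values measure the spread between 2 experiments, which may be technical. Arrays of the same experiment at different times were fitted as independent. The p-values of means over several times can therefore be too small. The cultures were moved to a new plate and split on day 2, hence a change between 48 and 73 h and an effect of this transfer cannot be told apart. In a culture measured in bulk, a higher level in each cell and a larger share of cells with the transcript cannot be told apart either.

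The labelled cell type was checked against marker genes. The 6 T-cell markers on the array had a mean log2 intensity between 11.9 and 13.4 on every array, with *Cd4* between 8.20 and 9.63 in the condition means. Of the CD8 T-cell markers, *Cd8a* lay below the median of all values in all conditions, whereas *Cd8b1* lay between 11.3 and 12.5. The lineage markers separated as labelled, since late Th1 cells exceeded late Th2 cells by 3.29 for *Tbx21* and fell below them by 3.15 for *Gata3*. Arrays of the same condition correlated between 0.978 and 0.995 across genes, and precision is limited by having 2 arrays per condition. The residual SD of the cytokine genes was 0.28 for *Csf1*, 0.40 for *Il21* and *Lif*, 0.51 for *Il3*, and 0.63 for *Csf2*, against a median of 0.15 over all genes tested.

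IL-3 and GM-CSF, the products of *Il3* and *Csf2*, act on myeloid progenitors, mast cells, and granulocytes, and their receptors share the beta common chain. M-CSF, the product of *Csf1*, is the main growth factor of monocytes and macrophages and signals through the receptor tyrosine kinase encoded by *Csf1r*. IL-21 signals through its own receptor chain and the common gamma chain to STAT3 and drives B-cell and follicular helper T-cell responses, IL-9 acts on mast cells through the common gamma chain as well, and LIF is a member of the IL-6 family that signals through gp130 and STAT3. In T cells, transcription of *Il3* and *Csf2* is switched on by signals of the T-cell receptor through NFAT, AP-1, and NF-κB.

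*Il3* and *Csf2* are neighbours in the mouse genome. In the RefSeq annotation of GRCm38.p6, both lie on the minus strand of chromosome 11, *Csf2* at chr11:54247270-54249899 and *Il3* at chr11:54265085-54267279, with 15185 bases and 0 annotated genes between them. *Lif* lies on the plus strand of the same chromosome at chr11:4257568-4272514. The remaining genes lie on the minus strand, *Il21* at chr3:37222759-37232636, *Csf1* at chr3:107741048-107760469, and *Il9* at chr13:56479277-56482257. The 250 bases before the annotated start are shown for *Il3* and *Csf2*, which had the most similar time courses of all pairs of the 6 genes, and for *Lif*, whose time course differed from both. They are written 5′ to 3′ on the strand of the gene, from RefSeq, build GRCm38.p6, and cover chr11:54267280-54267529 for *Il3*, chr11:54249900-54250149 for *Csf2*, and chr11:4257318-4257567 for *Lif*. Capitals mark matches on either strand to core motifs of NFAT (GGAAA), AP-1 (TGANTCA), STAT (TTCNNNGAA), STAT6 (TTC and GAA separated by 4 bases), GATA factors (AGATAA), and T-box factors (GGTGTGA).
Il3: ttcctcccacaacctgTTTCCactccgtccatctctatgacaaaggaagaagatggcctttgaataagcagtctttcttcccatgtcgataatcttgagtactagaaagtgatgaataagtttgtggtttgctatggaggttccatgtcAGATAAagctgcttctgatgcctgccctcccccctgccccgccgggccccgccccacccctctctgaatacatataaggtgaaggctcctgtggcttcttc
Csf2: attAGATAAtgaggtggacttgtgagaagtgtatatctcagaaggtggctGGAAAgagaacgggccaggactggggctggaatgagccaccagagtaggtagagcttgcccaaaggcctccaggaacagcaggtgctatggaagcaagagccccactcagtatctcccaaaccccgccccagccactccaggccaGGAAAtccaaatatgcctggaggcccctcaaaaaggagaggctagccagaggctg
Lif: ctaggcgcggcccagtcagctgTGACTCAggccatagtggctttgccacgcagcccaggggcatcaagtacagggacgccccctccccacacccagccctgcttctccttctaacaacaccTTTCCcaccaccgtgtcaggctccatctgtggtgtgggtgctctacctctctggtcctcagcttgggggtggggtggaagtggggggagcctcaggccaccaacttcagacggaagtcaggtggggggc
The *Il3* window held 1 NFAT match, which begins 234 bases before the start, and 1 GATA match at 101 bases. The *Csf2* window held NFAT matches at 200 and 55 bases and 1 GATA match at 247 bases. In the *Lif* window, 1 AP-1 match began at 228 bases and 1 NFAT match at 129 bases before the start. No capitals overlap between motifs in these windows. Over all 32851 promoter windows of this length, 55.6% held the NFAT motif, 9.99% the GATA motif, 6.75% the AP-1 motif, 7.02% the STAT motif, 5.85% the STAT6 motif, and 3.33% the T-box motif. Among the windows that are not shown, those of *Csf1* and *Il21* held 3 NFAT matches each, and that of *Il9* held 3 NFAT matches, 1 AP-1 match, and 1 STAT6 match whose letters do not overlap. A match is a description of the letters and does not show that a factor binds there.

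The genes differed in how far they rose above background. The median of all array values, 6.77 on the log2 scale, served as the filter level. For comparison, the 95th percentile of the means of 1285 probes for olfactory receptors, which T cells do not use, was 6.88. *Il9* stayed below the filter level in 37 of 37 condition means, with arrays between 6.24 and 6.78, and its highest condition mean was 6.63 in Th0 cells at 24 h. *Il9* was therefore near background in every culture and was not tested. *Lif* exceeded the filter level in 36 conditions, all except naive cells, and *Csf2* in 34. *Csf1* and *Il21* exceeded it in 28 conditions each but had narrow ranges, with condition means from 6.54 to 8.40 for *Csf1* and from 6.43 to 8.45 for *Il21*. *Il3* exceeded it in 25 conditions and had the widest range of the 6 genes, from 6.48 to 12.34. Levels of different genes come from different probes and are not compared with each other.

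**Figure D1:**
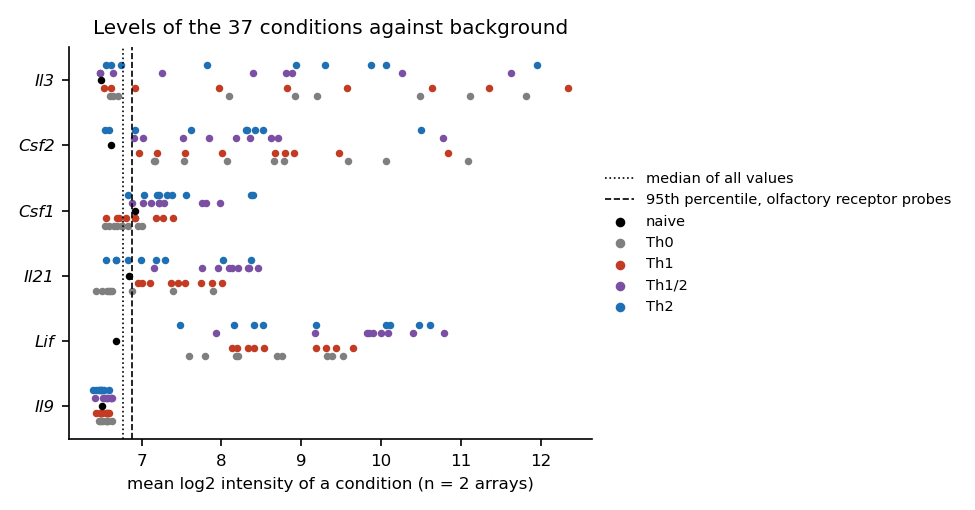
Mean log2 intensity (x axis) of each of the 37 conditions for the 6 genes (rows), with points coloured by cell type, the dotted line at the median of all values (6.77) and the dashed line at the 95th percentile of olfactory receptor probes (6.88). All *Il9* points lie left of the dotted line, the naive points lie close to it for every gene, and *Il3* reaches furthest to the right.

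A gene was called kinetic in a cell type when the F-test in limma over the 9 differences to 0 h had an adjusted p under 0.05 and 2 consecutive time points showed a change of 2-fold or more in the same direction. *Il3*, *Csf2*, and *Lif* were kinetic in all 4 cell types. In Th0 cells, these were 3 of the 6 genes, where 26.4% of all genes tested were kinetic, and in Th1 cells they were again 3, where the share of all genes was 27.1%. In Th1/2 cells, *Il21* was kinetic in addition, which made 4 of 6 against 28.9% of all genes. In Th2 cells, *Il21* and *Csf1* joined them, which made 5 of 6 against 28.3% of all genes. All changes behind these calls were increases.

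**Figure D2:**
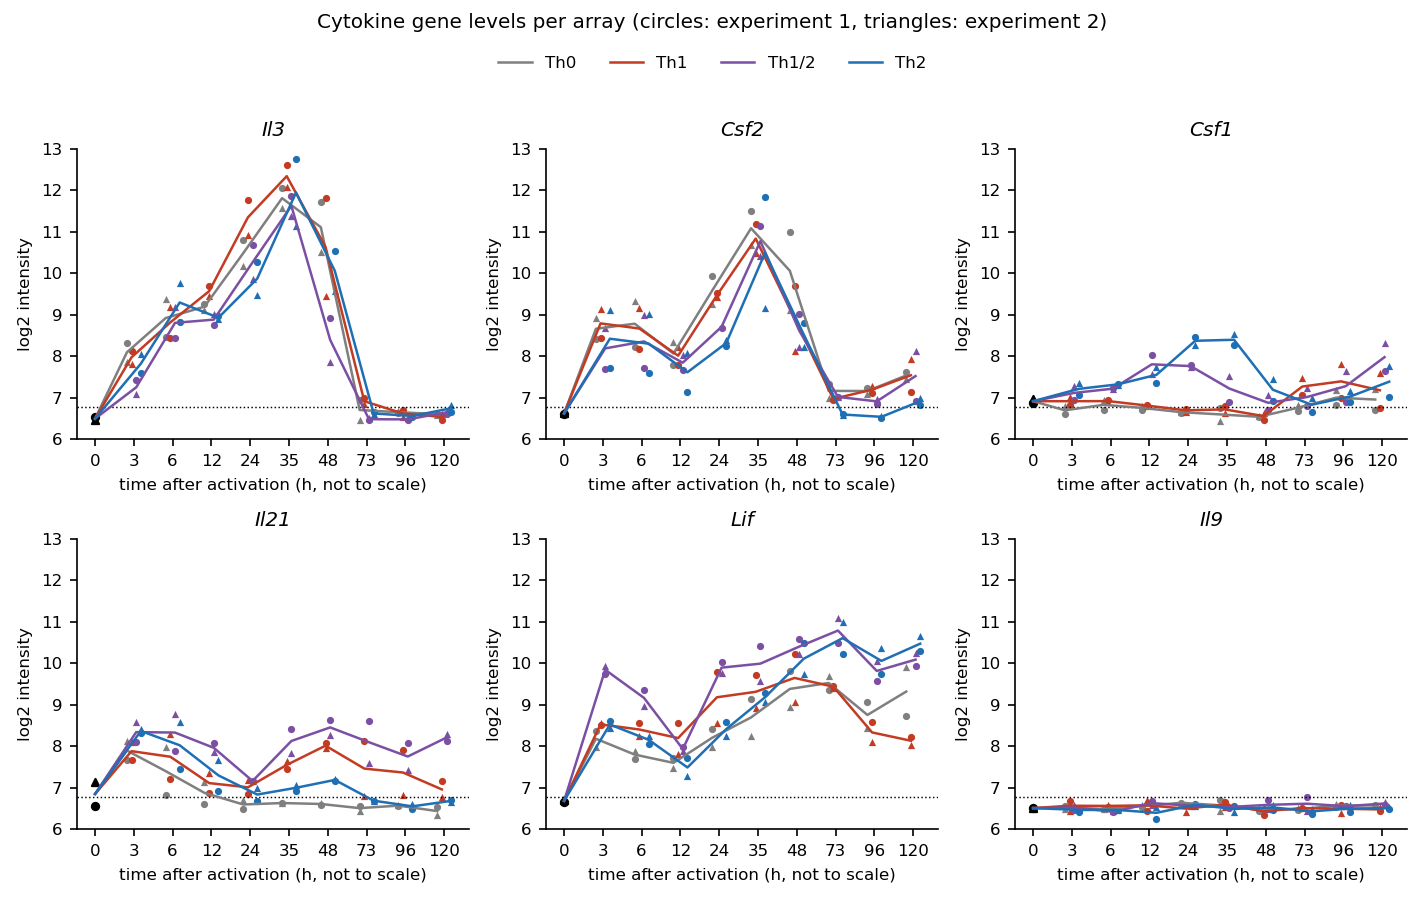
Log2 intensity (y axis) against time after activation in h (x axis, not to scale) for each gene, with circles for arrays of experiment 1, triangles for experiment 2, lines through the means of each cell type, naive cells in black at 0 h, and the dotted line at the median of all values. *Il3* and *Csf2* peak at 35 h in all cell types. From 73 h on, *Il3* is near the dotted line, while *Csf2* stays above it in Th0, Th1, and Th1/2 cells. *Csf1* rises in Th2 cells at 24 and 35 h, *Il21* is highest in Th1/2 cells from 6 h on, *Lif* remains elevated to 120 h, and *Il9* is flat.

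*Il3* rose in every culture to a maximum at 35 h and was back near background at 73 h. In naive cells, the arrays of experiments 1 and 2 had log2 levels of 6.52 and 6.46. At 3 h, the levels were 8.33 and 7.86 in Th0 cells, 8.13 and 7.81 in Th1 cells, 7.42 and 7.08 in Th1/2 cells, and 7.60 and 8.04 in Th2 cells, so all 8 arrays were above both naive arrays. At 35 h, they reached 12.05 and 11.57 in Th0 cells, 12.61 and 12.08 in Th1 cells, 11.87 and 11.39 in Th1/2 cells, and 12.75 and 11.15 in Th2 cells. The ranges of the 4 cell types overlapped at this maximum, and the Th2 arrays spanned both the highest and the lowest value. The increase over 0 h at 35 h was 5.85 for Th1, 5.46 for Th2, 5.32 for Th0, and 5.13 for Th1/2 cells (log2, SE 0.48 each, n = 2). Naive levels of *Il3*, *Csf2*, and *Lif* were below the filter level, so increases of these genes over 0 h can understate the change. From 73 h on, all 24 arrays lay between 6.45 and 6.98.

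For *Il3*, both Th1/2 arrays lay below those of the other cultures at 3 h. At 24 h, both Th1 arrays (11.78 and 10.92) lay above those of the other cultures. Th1 minus Th2 was then 1.48 (SE 0.48, adjusted p = 0.157 from limma), without passing. The condition means of the cultures were furthest apart at 48 h. There, Th0 cells had 11.71 and 10.51, Th1 cells 11.82 and 9.45, Th2 cells 10.55 and 9.57, and Th1/2 cells 8.92 and 7.87. Both Th1/2 arrays were thus below all 6 arrays of the other cultures, and experiment 1 was above experiment 2 in each cell type. The difference between Th1/2 and Th1 cells at 48 h was -2.24 (SE 0.48, adjusted p = 0.00292 from limma), a 4.73-fold lower level in Th1/2 cells. It was lower in both experiments, by 2.90 in experiment 1 and by 1.58 in experiment 2. Of the 6 genes, *Il3* was the only one called in this comparison, where 1.05% of all genes had an adjusted p under 0.05 and at least a 2-fold difference.

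*Csf2* followed a similar time course with an additional early plateau. Naive cells had 6.60 and 6.64, and at 3 h the arrays had 8.41 and 8.91 in Th0 cells, 8.45 and 9.14 in Th1 cells, 7.69 and 8.69 in Th1/2 cells, and 7.73 and 9.12 in Th2 cells. All 8 arrays were thus above naive cells at 3 h, and experiment 2 was the higher one in each cell type. At 12 h, the condition means were lower than at 6 h in all 4 cell types, with arrays between 7.14 and 8.35. At 35 h, the levels were 11.50 and 10.68 in Th0 cells, 11.18 and 10.49 in Th1 cells, 11.14 and 10.41 in Th1/2 cells, and 11.83 and 9.16 in Th2 cells. Again the ranges overlapped, and the Th2 arrays of both experiments lay furthest apart. The increase over 0 h at 35 h was 4.47 for Th0, 4.22 for Th1, 4.16 for Th1/2, and 3.88 for Th2 cells (SE 0.60 each). From 73 h on, *Csf2* remained above the filter level in Th0, Th1, and Th1/2 cells, with arrays between 6.85 and 8.12, whereas the Th2 arrays were between 6.52 and 6.99.

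Over the 37 condition means, *Il3* and *Csf2* had a Pearson correlation of 0.909, and it was 0.913 over the arrays of experiment 1 and 0.855 over those of experiment 2. No other pair of the 6 genes exceeded 0.135 in size. These points share cultures and time points, so the correlation is a description of similar time courses. Among 7451 genes whose condition means span at least 1 on the log2 scale, those most similar to *Il3* were *Cbwd1* (0.918), *Frrs1* (0.917), *Hax1* (0.910), *Csf2* (0.909), and *Gpn2* (0.907). For *Csf2* they were *Il3*, *H2al1e* (0.887), *Egr4* (0.848), *Plek* (0.844), and *Ccl3* (0.844), of which *Egr4* encodes an early growth response factor and *Ccl3* a chemokine of activated T cells. *Csf1*, *Il21*, and *Lif* had weaker maxima of 0.684 with *Pros1*, 0.805 with *Slamf7*, and 0.806 with *Elmo2*, respectively.

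*Csf1* met the kinetic criteria in Th2 cells alone, and its levels in Th1/2 cells were intermediate at 24 and 35 h. Naive cells had 6.86 and 6.97. At 24 h, the Th2 arrays had 8.47 and 8.28, the Th1/2 arrays 7.79 and 7.73, the Th1 arrays 6.74 and 6.65, and the Th0 arrays 6.64 and 6.66. At 35 h, the levels were 8.26 and 8.53 in Th2, 6.91 and 7.53 in Th1/2, 6.80 and 6.63 in Th1, and 6.75 and 6.44 in Th0 cells. At both times, the Th2 arrays were the highest and the Th1/2 arrays came next, without overlap between these and with the other cultures. The increase in Th2 cells over 0 h at 35 h was 1.48 (SE 0.27). By 48 h, the Th2 arrays had fallen to 6.92 and 7.46, still above the Th0 and Th1 arrays, which lay between 6.47 and 6.64. In Th1/2 cells, *Csf1* was highest at 120 h, with 7.63 and 8.32 and an increase over 0 h of 1.06 (SE 0.27), but it did not meet the kinetic criteria. The Th1 arrays had 6.98 and 7.80 at 96 h, their highest mean, with a wide spread between the experiments.

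*Il21* rose early in all cultures and later diverged. Naive cells had 6.55 and 7.15, which is a wide spread between the experiments for this gene. At 3 h, Th0 cells had 7.66 and 8.13, Th1 cells 7.67 and 8.09, Th1/2 cells 8.10 and 8.58, and Th2 cells 8.33 and 8.41, so all 8 arrays exceeded both naive arrays. From 24 h on, the Th0 arrays lay between 6.34 and 6.70, at or below the filter level. Th2 cells returned to 6.68 and 6.99 at 24 h and lay between 6.49 and 7.20 from 48 h on. In Th1/2 cells, the levels were 8.41 and 7.84 at 35 h, 8.64 and 8.27 at 48 h, and still 8.12 and 8.29 at 120 h. Th1 cells were between these cultures, with 8.08 and 7.95 at 48 h. From 73 h on, both experiments disagreed in Th1 cells, since experiment 1 had 8.12, 7.90, and 7.15 and experiment 2 had 6.80, 6.83, and 6.76 at 73, 96, and 120 h.

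*Lif* was the only one of the 6 genes that stayed well above naive cells in every culture up to 120 h. Naive cells had 6.66 and 6.70. Already at 3 h, Th1/2 cells had 9.75 and 9.94, whereas the 6 arrays of the other cultures were between 7.99 and 8.60. At 12 h, the means of all cultures were lower than at 3 h, with 7.97 and 7.89 in Th1/2 cells, 8.57 and 7.82 in Th1 cells, 7.72 and 7.48 in Th0 cells, and 7.70 and 7.27 in Th2 cells. They then increased again, to 10.58 and 10.22 in Th1/2, 10.49 and 9.74 in Th2, 10.22 and 9.07 in Th1, and 9.81 and 8.96 in Th0 cells at 48 h. The ranges of the cultures overlapped at 48 h except for Th1/2 and Th0 cells, which were separate. At 120 h, Th2 cells had 10.30 and 10.65, Th1/2 cells 9.93 and 10.24, Th0 cells 8.73 and 9.90, and Th1 cells 8.22 and 8.04, so both Th2 and Th1/2 arrays lay above all Th0 and Th1 arrays. The largest increase over 0 h was 4.11 in Th1/2 and 3.93 in Th2 cells at 73 h, 2.97 at 48 h for Th1, and 2.84 at 73 h for Th0 cells (SE 0.39 each).

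*Lif* is represented by 5 probes on the array, and all other genes of the group by 1. The probe used targets the transcript NM_001039537, and a second probe for this transcript followed it with a correlation of 0.987 over the conditions. Of 3 probes for NM_008501, 1 followed it with 0.918 at lower levels (6.36 to 8.13), and the others stayed between 6.23 and 6.80. The time course of *Lif* is thus that of the transcripts recognized by the first of these probes.

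Differences between cell types were tested as means over an early window (3, 6, and 12 h), a middle window (24 and 35 h), and a late window (48, 73, 96, and 120 h), and Benjamini-Hochberg adjustment covered all genes tested. Time points of the same experiment entered these means as separate replicates. A late mean of a cell type thus rests on 8 arrays but on only 2 experiments, and its p-values can look stronger than 2 experiments allow. Counts are given out of the 6 genes, although *Il9* was not tested. In the early window, few genes differed at all. Th2 and Th0 cells differed for 1 of the 6 genes, where 1.7% of all genes tested differed, namely *Csf1*. No member of the group passed for Th1 vs. Th2 (0 of 6, all genes 1.48%), Th1 vs. Th0 (0 of 6, 0.123%), Th1/2 vs. Th1 (0 of 6, 2.05%), or Th1/2 vs. Th2 cells (0 of 6, 0.166%). *Csf1* in early Th2 cells lay between 7.07 and 7.74 with a median of 7.34 over 6 arrays, and in Th0 cells between 6.60 and 6.94 with a median of 6.75, without overlap. The difference was 0.60 (SE 0.15, adjusted p = 0.0233 from limma), with 0.58 in experiment 1 and 0.62 in experiment 2. It did not pass in a fit without either experiment's Th0 or Th2 arrays, where its size was between 0.50 and 0.71. Unlike *Csf1*, early *Lif* in Th1/2 cells missed the threshold, with a difference to Th2 cells of 0.93 (SE 0.22, adjusted p = 0.0802), 0.91 in experiment 1 and 0.94 in experiment 2.

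The experiments differed in level at several time points, as seen for *Il3* and *Csf2*. The comparisons were therefore repeated with the experiment within each time point as a replicate block. For early time points, this block gave 8 calls among 30 comparisons of these genes instead of 1, and the share of calls over all genes and comparisons was 3.02% instead of 1.1%. The 30 comparisons include those of *Il9*, which was not tested. With this block, the early differences between Th1/2 and Th2 cells for *Lif* (adjusted p = 0.000429 from limma) and between Th1/2 and Th1 cells for *Lif* (0.61, adjusted p = 0.0108), *Il21* (0.63, adjusted p = 0.00231), *Csf1* (0.50, adjusted p = 0.000246), and *Il3* (-0.47, adjusted p = 0.0200) passed as well. The same held for *Csf1* in Th1 vs. Th2 cells (-0.48, adjusted p = 0.000454) and for *Il21* in Th2 vs. Th0 cells (0.51, adjusted p = 0.0207).

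In the middle window, *Csf1* separated the cultures that received IL-4 from those that did not. Its 4 Th2 arrays were between 8.26 and 8.53, the Th1/2 arrays between 6.91 and 7.79, the Th1 arrays between 6.63 and 6.80, and the Th0 arrays between 6.44 and 6.75. *Csf1* was lower in Th1 than in Th2 cells by 1.68, a 3.20-fold difference (SE 0.19, adjusted p = 1.38e-08 from limma), and higher in Th2 than in Th0 cells by 1.76, a 3.39-fold difference (SE 0.19, adjusted p = 3.59e-09). Th1/2 cells were intermediate and differed from both lineages, with 0.78 over Th1 cells (SE 0.19, adjusted p = 0.00854) and -0.89 against Th2 cells (SE 0.19, adjusted p = 0.00823). These calls depended on single replicates. The former was lost without the arrays of experiment 2 of Th1 (adjusted p = 0.0867) or Th1/2 cells (adjusted p = 0.144), and the latter without the Th1/2 arrays of experiment 1 (adjusted p = 0.179) or the Th2 arrays of experiment 1 (adjusted p = 0.118) or 2 (adjusted p = 0.124). *Lif* was higher in Th1/2 than in Th2 cells by 1.15 (SE 0.27, adjusted p = 0.0334), and its Th1/2 arrays (9.57 to 10.41) did not overlap with the Th2 arrays (8.23 to 9.28). This call was lost without the Th1/2 arrays of experiment 1 (adjusted p = 0.531) or 2 (adjusted p = 0.0597) and without the Th2 arrays of experiment 1 (adjusted p = 0.184) or 2 (adjusted p = 0.408). Averaged over the probes of *Lif* above the filter level, this difference was 0.60 (adjusted p = 0.0882).

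These calls can be read against all genes. In the middle window, 1 of the 6 genes passed for Th1 vs. Th2 cells, where 3.72% of all genes passed, and 1 for Th2 vs. Th0 cells (all genes 3.76%). For Th1/2 vs. Th1 cells, 1 of 6 passed (2.78%), and for Th1/2 vs. Th2 cells, 2 of 6 passed (0.478%). For Th1 vs. Th0 cells, 0 of 6 passed, where 0.0651% of all genes did. With the block within time points, 13 of 30 comparisons passed instead of 5, those of *Il9* again not being tested, and the share over all genes was 5.91% instead of 2.16%. The calls added for *Il3* and *Csf2* were *Il3* in Th1 vs. Th2 cells (0.94, adjusted p = 4.38e-05 from limma), Th1/2 vs. Th1 cells (-0.90, adjusted p = 9.94e-05), and Th1 vs. Th0 cells (0.70, adjusted p = 0.0299), and *Csf2* in Th2 vs. Th0 cells (-0.93, adjusted p = 0.00393) and Th1 vs. Th2 cells (0.75, adjusted p = 0.0246). *Lif* passed in Th1 vs. Th0 cells (0.80, adjusted p = 0.0441) and Th1/2 vs. Th1 cells (0.70, adjusted p = 0.0151), and *Il21* in Th1/2 vs. Th2 cells (0.73, adjusted p = 0.0101).

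Cells other than T cells can also make M-CSF and LIF, so lists of their markers were compared. Over all times after 0 h, the mean log2 level of the 5 stromal markers was between 6.78 and 7.30 on the Th2 arrays and between 6.85 and 7.23 on the Th0 arrays. For the 7 myeloid markers on the array, it was between 6.48 and 7.23 in Th2 and between 6.42 and 7.35 in Th0 cells, and for the 7 markers of mast cells and basophils between 6.64 and 7.47 and between 6.82 and 7.56. The ranges overlapped in each case, but they span all times and so cannot isolate the middle window. Of these markers, 2 stromal, 5 myeloid, and 4 mast-cell ones were above the filter level in at least 1 condition of either culture. The mast-cell marker *Mcpt8* and the myeloid marker *Itgam* were below it in all conditions. Single markers differed in the middle window. The B-cell marker *Cd79b* moved like *Csf1*, with -1.14 for Th1 minus Th2 (SE 0.26, adjusted p = 0.00404 from limma) and 1.11 for Th2 minus Th0 (SE 0.26, adjusted p = 0.00540), as 1 of 3 B-cell markers tested. *Kit*, a marker of mast cells, moved in the opposite direction, with 1.05 (SE 0.20, adjusted p = 0.000517) and -0.92 (SE 0.20, adjusted p = 0.00302). Their part in the differences was not tested.

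**Figure D3:**
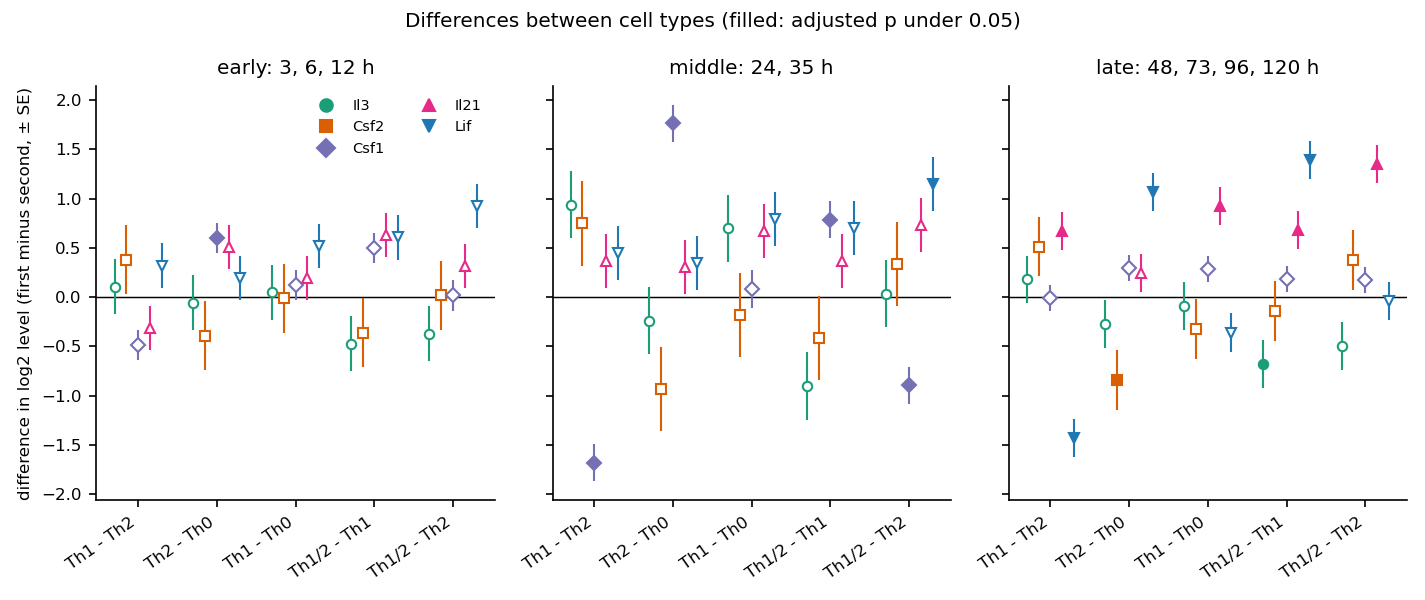
Difference in mean log2 level (y axis, first minus second cell type, bars show ± SE) for the 5 tested genes in the 5 comparisons (x axis) and 3 windows (panels), with filled symbols for an adjusted p under 0.05. *Csf1* stands out in the middle window, with -1.68 for Th1 - Th2 and 1.76 for Th2 - Th0, whereas *Lif* and *Il21* hold most filled symbols in the late window.

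In the late window, *Lif* was higher in the cultures that received IL-4. Its 8 Th2 arrays lay between 9.74 and 11.00 (median 10.33) and its 8 Th1/2 arrays between 9.58 and 11.09 (median 10.23). Th0 arrays lay between 8.43 and 9.90 (median 9.22) and Th1 arrays between 8.04 and 10.22 (median 8.82), so the ranges overlapped at their ends. *Lif* was lower in Th1 than in Th2 cells by 1.43, a 2.69-fold difference (SE 0.19, adjusted p = 1.60e-07 from limma), and higher in Th2 than in Th0 cells by 1.07, a 2.10-fold difference (SE 0.19, adjusted p = 2.94e-05). Th1/2 exceeded Th1 cells by 1.39, a 2.62-fold difference (SE 0.19, adjusted p = 3.93e-07). Th1/2 and Th2 cells had a difference of -0.04 (SE 0.19, adjusted p = 0.982), with -0.04 in each experiment. The experiments gave the same sign for each of these differences, and the 3 that passed also passed without any 1 replicate of a culture. The difference between Th1 and Th2 cells grew with time, and at 120 h it was -2.34 (SE 0.39, adjusted p = 2.42e-05), 5.07-fold. *Lif* was 1 of the 6 genes called at this time, where 2.34% of all genes passed with at least 2-fold. Some markers of other cells moved with late *Lif*. Of 5 myeloid markers tested, *Adgre1* moved in the same direction, with a late difference of -2.52 for Th1 minus Th2 (SE 0.09, adjusted p = 2.43e-24) and of 1.64 for Th1/2 minus Th1 (SE 0.09, adjusted p = 6.27e-18). The mean of the 7 myeloid markers had overlapping ranges on the Th1 (6.45 to 7.31), Th2 (6.48 to 7.23), and Th1/2 arrays (6.45 to 7.30). These ranges span all times after 0 h and so cannot isolate the late window. Of 3 B-cell markers tested, *Cd79b* had -0.84 for Th1 minus Th2 (SE 0.18, adjusted p = 0.000530), 0.87 for Th2 minus Th0 (SE 0.18, adjusted p = 0.000262), and 0.94 for Th1/2 minus Th1 (SE 0.18, adjusted p = 0.000155). Of 2 stromal markers tested, *Pecam1*, which endothelial cells and naive T cells express, had -0.59 for Th1 minus Th2 (SE 0.15, adjusted p = 0.00232). Of the 6 T-cell markers, 3 were higher in late Th1 and in late Th0 cells than in Th2 cells, with a median difference of 0.19 for Th1 minus Th2. The part of these markers in the differences of *Lif* was not tested.

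*Il21* was highest in late Th1/2 cells. Its 8 arrays were between 7.41 and 8.64 (median 8.20) in Th1/2, between 6.76 and 8.12 (median 7.52) in Th1, between 6.49 and 7.20 (median 6.69) in Th2, and between 6.34 and 6.63 (median 6.56) in Th0 cells. The Th1/2 arrays did not overlap with the Th2 or Th0 arrays. Th1/2 exceeded Th2 cells by 1.35, a 2.55-fold difference (SE 0.19, adjusted p = 2.47e-06 from limma), with 1.60 in experiment 1 and 1.11 in experiment 2. Th1 exceeded Th0 cells by 0.92 (SE 0.19, adjusted p = 0.00104) and Th2 cells by 0.67 (SE 0.19, adjusted p = 0.00834), and Th1/2 exceeded Th1 cells by 0.68 (SE 0.19, adjusted p = 0.0104). The call between Th1/2 and Th2 cells held without any 1 replicate. The comparisons with Th1 cells depended on single replicates. Without the Th1 arrays of experiment 1, Th1 minus Th2 was 0.31 (adjusted p = 0.426) and Th1 minus Th0 was 0.56 (adjusted p = 0.190), and without those of experiment 2, Th1/2 minus Th1 was 0.32 (adjusted p = 0.429). The latter was 0.45 (adjusted p = 0.276) without the Th1/2 arrays of experiment 1, and leaving out the Th2 arrays of experiment 1 gave 0.66 (adjusted p = 0.0727) for Th1 minus Th2. *Klrk1*, a receptor gene from the list of NK-cell markers, was likewise higher in late Th1 than in Th2 cells by 1.67 (SE 0.12, adjusted p = 5.37e-15), whereas Th1/2 minus Th1 was -1.42 (SE 0.12, adjusted p = 1.24e-12), opposite to *Il21*. Of the 4 NK-cell markers, 2 were above the filter level in Th1 and in Th1/2 cells. Over all times after 0 h, the mean of the 4 was between 6.53 and 7.31 on the Th1 arrays and at most 6.77 on the Th1/2 arrays. Their part in the differences of *Il21* was not tested.

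**Figure D4:**
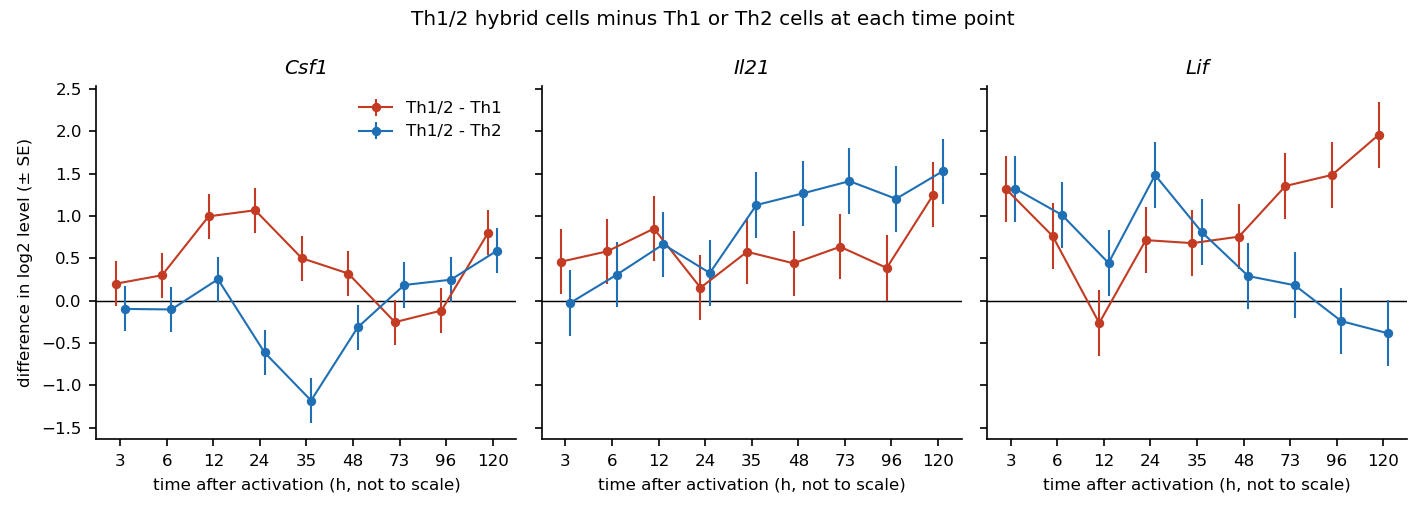
Difference in log2 level (y axis, bars show ± SE) of Th1/2 hybrid cells to Th1 cells (red) and to Th2 cells (blue) at each time point (x axis in h, not to scale) for *Csf1*, *Il21*, and *Lif*. For *Lif*, the difference to Th1 cells reaches 1.96 at 120 h while that to Th2 cells falls to -0.38, for *Il21* that to Th2 cells lies above 1 from 35 h on, and for *Csf1* that to Th2 cells is -1.18 at 35 h.

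Where Th1/2 cells stood relative to both lineages was tested as the late departure from the average of both, Th1 and Th2 cells being weighted equally. *Il21* in Th1/2 cells was above this mean by 1.02 (SE 0.17, adjusted p = 2.50e-05 from limma), and *Lif* by 0.67 (SE 0.17, adjusted p = 0.00649). That of *Il21* held in 10 of 10 fits without a replicate, and that of *Lif* was lost without the Th1/2 arrays of experiment 2 (0.55). Fits without Th0 or naive arrays leave both departures unchanged in size. *Il21* and *Lif* were 2 of the 6 genes, where 6.42% of all genes departed. Their positions differed, since late *Lif* in Th1/2 cells was at the Th2 level, with a difference of -0.04. Late *Il21* in Th1/2 cells was above both lineages, by 1.35 over Th2 cells and by 0.68 over Th1 cells. The latter call depended on single replicates. *Il3* was below the mean by 0.59 without passing (adjusted p = 0.0937), and *Csf1* and *Csf2* differed from it by 0.18 and 0.12.

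The late differences of *Il3* and *Csf2* passed by a small margin. Over the late window, *Il3* in Th1/2 cells fell below Th1 cells by 0.68 (SE 0.24, adjusted p = 0.0486 from limma), and *Csf2* was lower in Th2 than in Th0 cells by 0.84 (SE 0.30, adjusted p = 0.0354). Without 48 h, the difference of *Il3* was -0.15 (adjusted p = 0.836). That of *Csf2* was -0.61 (adjusted p = 0.233), with -0.57, -0.62, and -0.62 at 73, 96, and 120 h and the same sign in both experiments each time, so its call was lost while most of its size remained. The *Il3* call remained in 3 of 10 fits without a replicate, and the difference was smallest without the Th1 arrays of experiment 1, at -0.36. The *Csf2* call remained in 7 of 10 fits. It was lost without the Th0 arrays of experiment 1 (-0.52) and without the Th2 arrays of experiment 1 or 2. Both counts include fits without arrays of cultures outside the comparison, which leave the difference itself unchanged. With the block within time points, *Csf2* passed in Th1 vs. Th2 cells (0.51, adjusted p = 0.010), *Il3* in Th1/2 vs. Th2 cells (-0.50, adjusted p = 0.00196), and *Csf1* in Th2 vs. Th0 cells (0.30, adjusted p = 0.00257) and in Th1 vs. Th0 cells (0.29, adjusted p = 0.0101).

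Many genes differed between the late cultures, and the counts of the group are given against that. For Th1 vs. Th2 cells, 2 of the 6 genes passed (*Il21* higher, *Lif* lower in Th1 cells), where 20.4% of all genes passed. For Th2 vs. Th0 cells, 2 passed (*Lif* higher, *Csf2* lower in Th2 cells) against 25% of all genes. For Th1/2 vs. Th1 cells, 3 passed (*Lif* and *Il21* higher, *Il3* lower in Th1/2 cells) against 15.7%. *Il21* alone passed for Th1 vs. Th0 cells (1 of 6, all genes 5.8%) and for Th1/2 vs. Th2 cells (1 of 6, all genes 4.13%). The difference between Th1 and Th2 cells changed from the early to the late window for *Il21*, by 0.99 (SE 0.29, adjusted p = 0.0241 from limma), and for *Lif*, by -1.75 (SE 0.30, adjusted p = 3.09e-05). Only fits without Th1 or Th2 arrays alter this change. In these, the change of *Lif* lay between -1.94 and -1.55 and passed each time. That of *Il21* was lost on omitting Th1 replicate 1 (0.30) or Th2 replicate 2 (0.68). *Lif* and *Il21* were 2 of the 6 genes, where 8.75% of all genes had such a change.

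The receptor chains of these cytokines showed few differences between the cultures. Of 10 chains in a list of receptors, 9 were on the array and 6 were tested, and *Csf2rb2*, *Il9r*, and *Lifr* remained below the filter level. In the early and middle windows, 0 of 6 differed in any of the 5 comparisons. In the late window, *Csf2ra*, the alpha chain of the GM-CSF receptor, was lower in Th2 than in Th0 cells by 0.35 (SE 0.09, adjusted p = 0.00383 from limma), and *Il21r* was higher in Th1 than in Th0 cells by 0.43 (SE 0.12, adjusted p = 0.0239). The median late difference of the 6 chains between Th1 and Th2 cells was 0.06, beside a median of 0.00 over all genes tested. *Csf1r*, the receptor of M-CSF, was kinetic in all 4 cell types and had its highest level, 8.31, in naive cells, with changes between -1.05 and -1.27 at 3 h. *Csf1r* is also a myeloid marker, and the mean level of the 7 myeloid markers was between 7.56 and 8.11 in naive cells and between 6.42 and 7.35 later. *Il3ra* was kinetic in Th1/2 and Th2 cells, with increases over 0 h of 1.09 and 1.01 at 120 h.

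Transcription factors linked to these cytokines were examined next. In the late window, 6 of the 21 factors tested exceeded Th2 levels in Th1 cells and 7 fell below them, with a median difference of -0.04, where 20.4% of all genes passed in either direction. Besides *Gata3* and *Tbx21*, *Batf*, an AP-1 factor that binds with IRF4 at the *Il21* and *Il4* genes, was lower in Th1 cells by 1.94 (SE 0.13, adjusted p = 4.93e-16 from limma), and *Egr2*, an early growth response factor, by 1.96 (SE 0.25, adjusted p = 4.64e-08). *Nfatc1* and *Nfatc3*, which transmit calcium signals of the T-cell receptor, were higher in Th1 cells by 0.34 and 0.32 (SE 0.09 and 0.08, adjusted p = 0.00386 and 0.00168). *Maf*, which promotes *Il21* and *Il4* transcription, was higher in Th1/2 than in Th2 cells by 0.47 (SE 0.05, adjusted p = 8.11e-10) and than in Th1 cells by 0.43 (SE 0.05, adjusted p = 1.97e-09), at a low level of at most 7.26.

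Response and feedback genes of STAT3 and STAT5, factors downstream of several of these receptors, were counted in the same way. Of 10 such genes, 6 were higher and 1 was lower in late Th2 than in Th0 cells, where 25% of all genes passed, with a median difference of 0.29 beside -0.01 over all genes. Between late Th1 and Th2 cells, 3 were higher and 3 lower, against 20.4% of all genes. In late Th1/2 cells, 3 were higher and 1 was lower than in Th2 cells, against 4.13% of all genes. *Socs3*, a feedback inhibitor of STAT3 signaling, was higher in late Th1/2 than in Th2 cells by 0.82 (adjusted p = 0.000292 from limma) and higher in Th1 than in Th2 cells by 0.68 (adjusted p = 0.000758). *Socs2*, a target of STAT5, was lower in late Th1/2 than in Th2 cells by 0.39 (adjusted p = 0.00370).

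Among 12 other cytokine genes, 5 were above and 4 below the Th2 level in late Th1 cells, and 6 above and 1 below it in the middle window. The shares of all genes that passed were 20.4% late and 3.72% in the middle window. *Il2*, the T-cell growth factor, had its highest level at 35 h in Th0 cells (15.53), the time of the maximum of *Il3* and *Csf2*. Late *Il2* was lower in Th2 than in Th0 cells by 1.06 (SE 0.19, adjusted p = 3.18e-05 from limma) and for Th1 minus Th2 cells was 0.16 (adjusted p = 0.695). *Osm*, a relative of LIF in the IL-6 family, had a difference opposite in sign to *Lif*, since it was higher in late Th1 than in Th2 cells by 0.55 (adjusted p = 5.99e-05). *Ifng* was higher in late Th1 than in Th2 cells by 4.89, and for *Il4* the difference was -3.69, and both differences exceeded those of all 6 growth-factor and effector cytokine genes.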

How the data were processed

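The values are probe intensities deposited by the authors on the linear scale. Per the methods of the study, arrays were corrected for background, quantile-normalized, and brought to log2, with software not given in the sources used here. Deposited intensities ranged from 55.8 to 69892 with array medians between 107 and 111, so log2 was taken and nothing was normalized again. Of 45135 probes, 34773 carry 1 symbol, 18 several, and 10344 none. Probes above 6.77, the median of all log2 values, in the mean of at least 1 condition were kept, and each gene was represented by its brightest probe on average. All genes were fitted in limma 3.58.1 in R 4.3.3 with 1 mean per condition, as the fit pools the spread over 37 conditions, with Benjamini-Hochberg adjustment of p over 13817 genes in each comparison. This replaces the regression over time used in the study, and its rule of a 2-fold increase at 2 consecutive time points was widened to decreases.

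The genes described, the gene lists, the motifs, and the alternatives were chosen with earlier results of these data known. Genes are named if they belong to the 6 cytokine genes, the lists of receptor chains, transcription factors, STAT3 and STAT5 response genes, other cytokines, and markers, or to the 5 genes most similar to a cytokine gene. The experiment number pairs the arrays, since the study reports independent experiments. Residuals of arrays of the same experiment and time had a median correlation of 0.536 across genes over 54 pairs (lowest 0.0108). No 2 arrays held identical values, and all columns were assigned to a sample. The steps were tested on simulated data. Promoters and gene positions come from RefSeq tables of GRCm38.p6, in which all 6 genes were matched by symbol.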

Additional observations from a re-analysis of the deposited data

Results flagged for a closer look

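The difference between Th1 and Th2 cells changed between the early and the late window for 2 of the 6 genes, by a test of the change itself. Late minus early, the Th1 - Th2 difference of *Lif* changed by -1.75 (SE 0.30, adjusted p = 3.09e-05 from limma), from 0.32 to -1.43, with -1.49 in experiment 1 and -2.01 in experiment 2. That of *Il21* changed by 0.99 (SE 0.29, adjusted p = 0.0241), from -0.32 to 0.67, with 1.37 and 0.61 in the experiments. Without the Th1 arrays of experiment 1 it was 0.30 (adjusted p = 0.764), and without the Th2 arrays of experiment 2 it was 0.68 (adjusted p = 0.353), so it depended on these replicates. The change of *Lif* held in 10 of 10 fits without a replicate, between -1.94 and -1.55, but only fits without Th1 or Th2 arrays alter it. The early values on their own passed for neither gene. Over all genes tested, 8.75% had such a change. How far the transfer of the cultures on day 2 bears on it was not tested.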

How the results depend on the processing

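Alternatives changed the normalization, the probe that stands for a gene, the filter, the variance model, the block, the windows, the criteria, and the arrays used. No late difference that had passed took the other sign in any of 189 values under alternatives. Many of these values repeat the same difference. A filter, variance model, block, or 2-fold criterion leaves it unchanged, as does leaving out a culture outside the comparison. Of 336 values for late differences that had not passed, 17 had the other sign, and 0 of these 17 passed. Of the late differences of single genes, 482 values under alternatives kept their side of the threshold, 34 fell behind it, and 9 passed newly. The late calls of *Lif* in 3 comparisons and of *Il21* in Th1/2 vs. Th2 cells held under every alternative except 48 h alone, and those of *Csf1* in the middle window for Th1 vs. Th2 and Th2 vs. Th0 cells under every one run. The kinetic genes were the same in all settings run for them, which leave out the block within time points, except that *Il21* became kinetic in Th1 cells without their replicate 1, that it was lost in Th2 cells without their replicate 2 or the naive replicate 1, and that *Csf1* became kinetic in Th1/2 cells at 1.5-fold.

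The experiment number pairs the samples. With the experiment as a replicate block over all times, early calls increased from 1 to 4 (added: *Csf1* in Th1 vs. Th2 and Th1/2 vs. Th1, *Lif* in Th1/2 vs. Th2 cells), and *Csf1* passed late in Th2 vs. Th0 cells (adjusted p = 0.0365 from limma). With the block within time points, early calls increased to 8, middle calls from 5 to 13, and late calls from 9 to 13. The late calls rose from 1 to 2 each for Th1 vs. Th0 and Th1/2 vs. Th2 cells and from 2 to 3 each for Th1 vs. Th2 and Th2 vs. Th0 cells. Over all genes and comparisons, the share of calls rose with it as well, to 3.02% early, 5.91% in the middle, and 23.2% late (14.2% without a block). Residuals of arrays of the same experiment and time had a median correlation of 0.536, against 0.108 over all pairs of arrays of experiment 1. Without the block, variation shared in this way counts as error. The p-values of differences at the same times can therefore also be too large. How far this accounts for the added calls was not tested.

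Without 1 replicate of a culture, early calls ranged from 0 to 3, middle calls from 3 to 6, and late calls from 1 to 2 for Th1 vs. Th2 and for Th2 vs. Th0 cells. A culture left with 1 array per time is assumed there to vary like the others. With 3 h alone, 0 early calls remained. Late calls for Th2 vs. Th0 cells fell from 2 to 1 over 73 to 120 h and without the 2 arrays that stand apart (Th1/2 cells at 12 h in experiment 1 and Th0 cells at 96 h in experiment 2). With at least 2-fold required, late calls were 1 for Th1 vs. Th2, 1 for Th2 vs. Th0, 0 for Th1 vs. Th0, and 1 for Th1/2 vs. Th1 cells. At 48 h alone, a setting chosen after seeing the data, they were 0, 0, 0, 1, and 0 in the order Th1 vs. Th2, Th2 vs. Th0, Th1 vs. Th0, Th1/2 vs. Th1, and Th1/2 vs. Th2, with 2 arrays per mean instead of 8.

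With 2 arrays per condition, the SE of a difference at a single time was 0.27 for *Csf1*, 0.39 for *Il21* and *Lif*, 0.48 for *Il3*, and 0.60 for *Csf2*. *Csf1* and *Il21* in many conditions and *Il3*, *Csf2*, and *Lif* in naive cells were close to or below the filter level, where differences on the log2 scale understate changes.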

Other observations

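The other genes with the most similar time courses, by Pearson correlation over the 37 condition means among 7451 genes, were *Sema4b* (0.634), *Fndc10* (0.628), *Sulf2* (0.624), and *Efna5* (0.605) for *Csf1*, *Sbno2* (0.772), *Tnip2* (0.713), *Frmd4b* (0.708), and *Icam1* (0.707) for *Il21*, and *Septin8* (0.791), *Tmem263* (0.791), *Gstm5* (0.783), and *Dmpk* (0.782) for *Lif*. *Icam1* encodes an adhesion molecule. Within single experiments, these correlations were lower for some of the genes, for example 0.397 and 0.371 between *Csf1* and *Sulf2*. Some genes from the lists of other cell types were above the filter level at single conditions, which was noticed after their values were seen. *Kit* reached 10.58 in Th1/2 cells at 3 h, *Hdc* 9.58 in Th1 cells at 35 h, *Klrk1* 8.99 in Th1 cells at 73 h, and *Adgre1* 10.73 in Th2 cells at 120 h. Over all arrays, the mean of the 4 B-cell markers on the array was between 6.74 and 7.82 and that of the 4 dendritic-cell markers between 6.57 and 6.80. The mean of the 2 CD8 T-cell markers was between 8.76 and 9.66, with *Cd8b1* as the bright one.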
